A study of Caenorhabditis elegans with 2 samples.

Results

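The glutathione S-transferase genes of Caenorhabditis elegans were taken as all protein-coding genes of the Ensembl annotation of WBcel235 whose names begin with gst- or gsto-, which gave 47 of 19973 genes, 44 of them gst- and 3 gsto-. They were described in chromatin immunoprecipitation and sequencing data for ZTF-22, a zinc finger protein. All animals were of strain OP676, which carries unc-119(tm4063) and the transgene wgIs676, a ztf-22 fused at its 3' end to TY1, EGFP and 3xFLAG sequences together with a wild-type unc-119 copy. Young adults of mixed sex were collected whole at 68 hours after synchronisation from starved L1 larvae, and an anti-GFP antibody was used. There was 1 group of 2 biological replicates and no second condition. The tagged protein came from a transgene in 1 strain, so binding of the untagged protein and of single tissues was not measured.

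Glutathione S-transferases join the thiol of glutathione to reactive compounds, which are then exported from the cell. Members of the pi, zeta and omega classes have further or more particular substrates, and in the worm many of the genes lie in tandem arrays. The transcription factor SKN-1 is known to raise several of them under oxidative stress, with gst-4 as its most used reporter.

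The deposited lists hold 30000 candidate regions per replicate, as many from the 2 replicates' reads combined, and 952 optimal peaks, which are the 952 strongest pooled regions. The signal value of a region and its q value are the authors' own. Signal values have a different scale in each list (medians of 19.2 and 34.5 in replicates 1 and 2, against 48.4 in the pooled list), so genes were compared by rank, with rank 1 the strongest region. A gene had a region when a summit fell between 500 bp before and 200 bp after one of its annotated transcript starts, here called the promoter window. Many worm messages are trans-spliced, so an annotated start need not be where transcription begins. Read depth is unknown from these lists.

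The sequences below carry the strongest regions at these genes. For gst-9, gst-27 and gst-1 they are the 201 bases centred on the pooled summit, and for gst-42 the 200 bases from 180 before its start to 20 after it. Each was read from the WBcel235 genome of RefSeq on the strand of the named gene, 5' to 3', with ce11 coordinates. Capitals mark 5 words on either strand: TGATAA of GATA factors, GTCAT and likewise ATCAT of SKN-1, GTAAACA of DAF-16 and CTGCGTCTC of many worm factor sites.
gst-27 chrII:15165947-15166147 (minus strand): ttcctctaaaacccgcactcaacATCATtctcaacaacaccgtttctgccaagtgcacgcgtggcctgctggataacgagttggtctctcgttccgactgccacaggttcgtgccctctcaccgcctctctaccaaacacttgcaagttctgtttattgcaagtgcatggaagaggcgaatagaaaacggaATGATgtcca
gst-9 chrII:4891498-4891698 (+ strand): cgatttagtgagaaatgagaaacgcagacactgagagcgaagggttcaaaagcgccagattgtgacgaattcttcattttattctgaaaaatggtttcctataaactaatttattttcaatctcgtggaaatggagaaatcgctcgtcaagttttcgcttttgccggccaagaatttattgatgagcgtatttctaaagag
gst-1 chrIII:9058987-9059187 (+ strand): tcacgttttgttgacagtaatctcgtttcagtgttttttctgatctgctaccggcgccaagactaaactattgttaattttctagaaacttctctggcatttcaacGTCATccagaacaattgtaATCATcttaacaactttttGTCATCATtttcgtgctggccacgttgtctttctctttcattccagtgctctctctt
gst-42 chrX:11727917-11728116 (minus strand): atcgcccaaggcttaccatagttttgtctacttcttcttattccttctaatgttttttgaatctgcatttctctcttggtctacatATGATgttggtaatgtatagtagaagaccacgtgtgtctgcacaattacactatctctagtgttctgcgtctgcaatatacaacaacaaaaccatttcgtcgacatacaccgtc

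The sequence at gst-27 had a GC content of 50.2% against 37.8% at gst-9 and 38.3% at gst-1. In the gst-27 sequence, base 120 is the first base of the snoRNA gene Y53F4B.48, which lies on the same strand. The summit at base 101 is 19 bp upstream of that gene. In the gst-9 sequence the gene starts at base 88 and its coding sequence at base 91, so the summit at base 101 lies in the first coding exon. The gst-1 sequence held GTCAT 2 times and ATCAT 2 times, all after the summit, and the gst-9 sequence held none of the 5 words. In the gst-42 sequence the summit is base 191 of 200, so most of its downstream side is not printed. Within 100 bp of that summit on either side, GTCAT occurred 1 time, ATCAT 2 times and TGATAA 2 times.

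Optimal ZTF-22 peaks lay in the promoter windows of 3 of the 47 genes: gst-27, gst-9 and gst-1. That is 6.38%, against 1.91% of all protein-coding genes. The other 44 had none. The members and lists were chosen with results of these data known, and no test was made over them, so this difference in share is a description.

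The strongest was at gst-27 (WBGene00001775, chromosome II, 15164890 to 15165731, minus strand), annotated as a glutathione transferase. Its region ranked 68 in replicate 1 (signal value 69.8, q = 0.00204) and 256 in replicate 2 (signal value 122, q = 0.000923). In the pooled list it ranked 136 with a signal value of 196 and q = 0.00137, and 57 protein-coding genes had a better pooled rank. The pooled summit, at position 15166047, lay 316 bp upstream of the start of gst-27, and the replicate summits lay 276 and 290 bp upstream. Both replicates therefore placed it among their 300 strongest regions. The summit was intergenic, 147 bp past the 3' end of gst-28 and 19 bp upstream of Y53F4B.48, which was nearer than the start of gst-27. Also nearer was the start of the non-coding gene Y53F4B.58 on the opposite strand, 156 bp from the summit. The data do not assign the region to one of these genes. Of the 952 optimal summits, 100 (10.5%) lay within 100 bp of the start of a snoRNA or tRNA gene. When such summits were left out, 2 GST genes and 358 of 382 protein-coding genes kept an optimal peak.

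At gst-9 (WBGene00001757, chromosome II, 4891585 to 4893573, + strand), a putative transferase, the region ranked 538 in replicate 1 (signal value 43.7, q = 0.014) and 324 in replicate 2 (signal value 113, q = 0.000923). Its pooled rank was 357, with a signal value of 153 and q = 0.00137, and 140 genes had a better rank. The summit at position 4891598 lay 13 bp downstream of the start in the pooled list and in replicate 2, and 16 bp upstream of it in replicate 1. The 2 replicate summits were thus 29 bp apart and on either side of the start. No other protein-coding start held this summit in its window. The nearest gene upstream was pgm-1, which ended 180 bp before gst-9 on the same strand.

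The third was at gst-1 (WBGene00001749, chromosome III, 9059331 to 9060181, + strand), which encodes a transferase of the pi class. The region ranked 1020 in replicate 1 (signal value 37.2, q = 0.0309) and 713 in replicate 2 (signal value 88.2, q = 0.00211), and 613 in the pooled list (signal value 128, q = 0.00571). It was therefore among the 952 strongest of replicate 2 and just outside those of replicate 1. The pooled summit at position 9059087 lay 244 bp upstream of the start, 2 bp from the summit of replicate 2 and 95 bp from that of replicate 1. Upstream, cls-2 ended 436 bp before the start of gst-1, and no other protein-coding start held the summit in its window. A second optimal peak lay 268 bp past the 3' end of gst-1 (summit 9060449, rank 517, signal value 134), inside lin-12, the Notch receptor gene, which runs towards gst-1 on the opposite strand. That peak ranked 407 in replicate 2 and 10812 in replicate 1, so its ranks were farther apart than those of the peak upstream of gst-1.

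**Figure D1:**
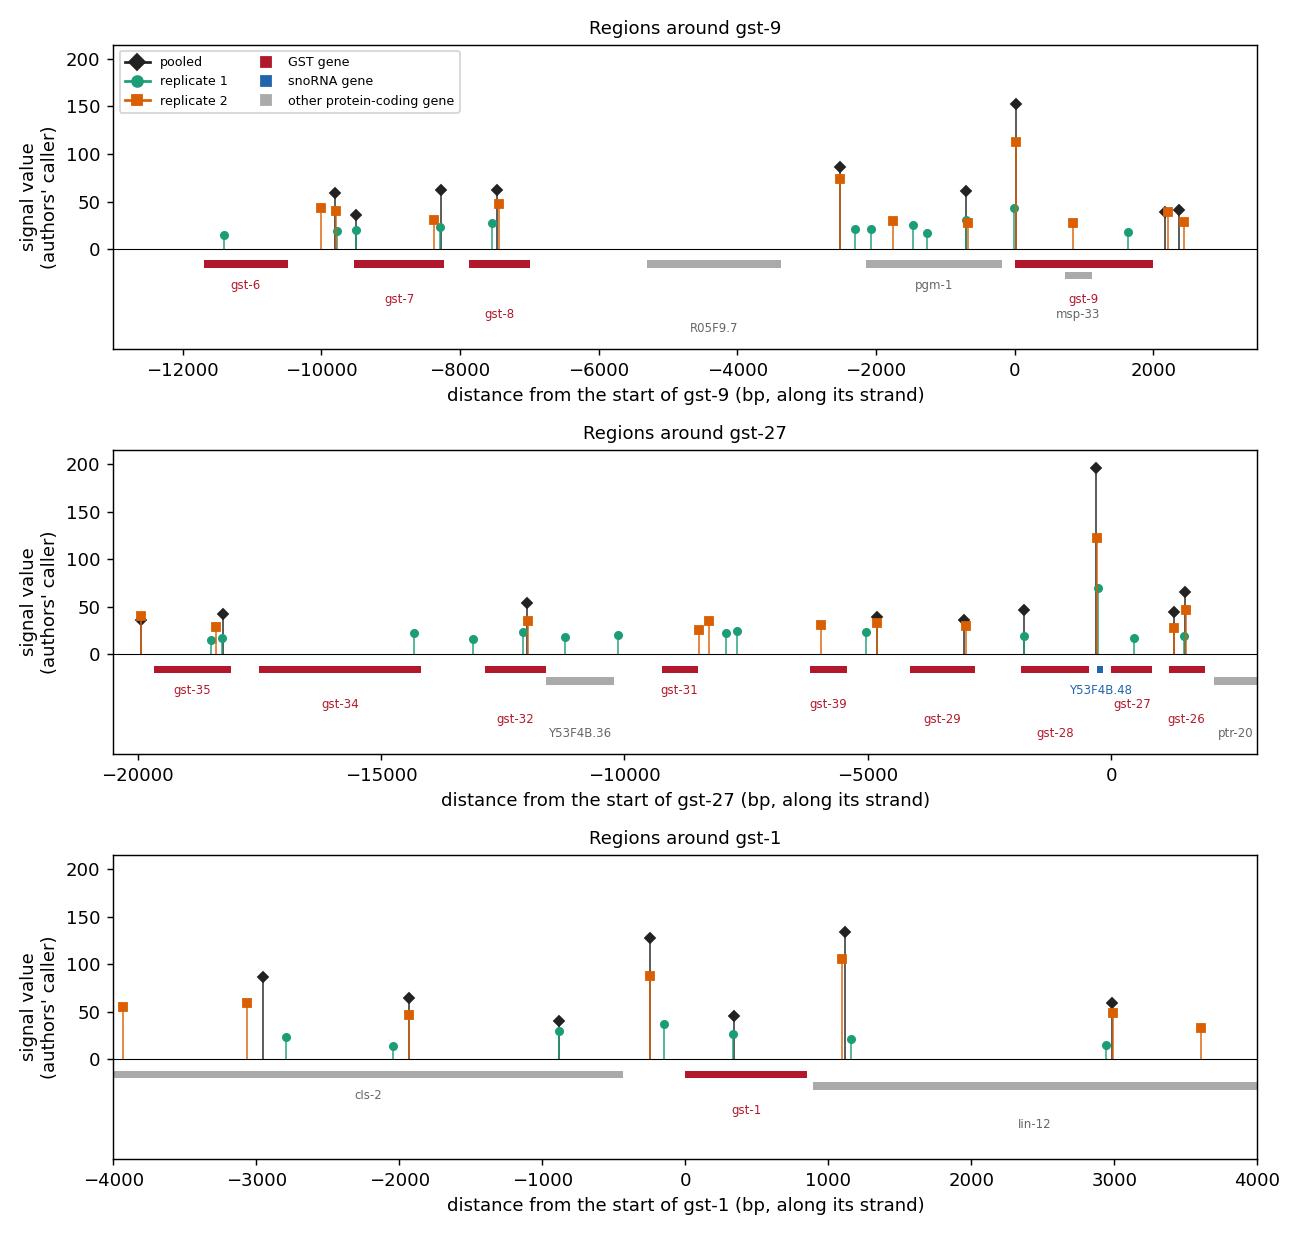
Summits of candidate regions around gst-9, gst-27 and gst-1, by distance from the start of each gene (bp, along its strand) and by signal value on the scale of each list (for gst-1, within 4000 bp of its start), with genes drawn as bars below (upper row same strand, lower row opposite). The summits at gst-9 (pooled signal value 153) and gst-27 (196) stand above the other pooled summits drawn in their tandem arrays, and gst-1 has a peak on either side (128 and 134).

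Each replicate taken alone gave 3 GST genes among its 952 strongest regions, and 2 of the 3 were the same. For replicate 1 these were gst-27, gst-9 and gst-42, with a background of 1.67% of protein-coding genes. For replicate 2 they were gst-27, gst-9 and gst-1, with a background of 1.99%.

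The gene called in replicate 1 alone was gst-42 (WBGene00001790, chromosome X, 11726264 to 11727936, minus strand), annotated as a maleylacetoacetate isomerase, the zeta class enzyme of tyrosine breakdown. It ranked 683 in replicate 1 (signal value 41.2, q = 0.0168) and 4811 in replicate 2 (signal value 49, q = 0.351), and 1976 in the pooled list (signal value 87.6, q = 0.102). The pooled summit at position 11727926 lay in the 5' UTR, 10 bp downstream of the start, and the replicate summits lay 11 and 0 bp downstream. The 2 replicate summits were thus 11 bp apart, while their ranks differed widely. The summit also lay in the promoter window of D1053.2, whose start was 225 bp from the summit on the opposite strand, so either gene could be counted. The other member with this annotated function, gst-43, had a region in replicate 2 alone, at rank 21602.

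The 5 members with the next best pooled ranks after the optimal peaks were gst-42 (rank 1976), gst-36 (3345), gst-38 (6277), gst-8 (6630) and gst-20 (7541). At gst-36 the ranks were 6361 in replicate 1 and 2729 in replicate 2, with q of 0.438 and 0.153, and the pooled summit lay 202 bp upstream of its start. That summit was also in the window of the divergent R07B1.5 and was 69 bp from the start of the non-coding gene R07B1.18. At gst-38 the ranks were 6755 and 3294, but the summits of the replicates were 362 and 71 bp upstream, at different places in the window. For gst-8 the pooled summit lay in the 3' UTR of gst-7, 406 bp upstream of the start of gst-8, and only replicate 1 had a summit in the window (rank 7556). The ranks at gst-20 were 10005 and 8857. Pooled q values of the last 3 were 0.504, 0.52 and 0.564, and the candidate lists include weak regions meant as background.

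**Figure D2:**
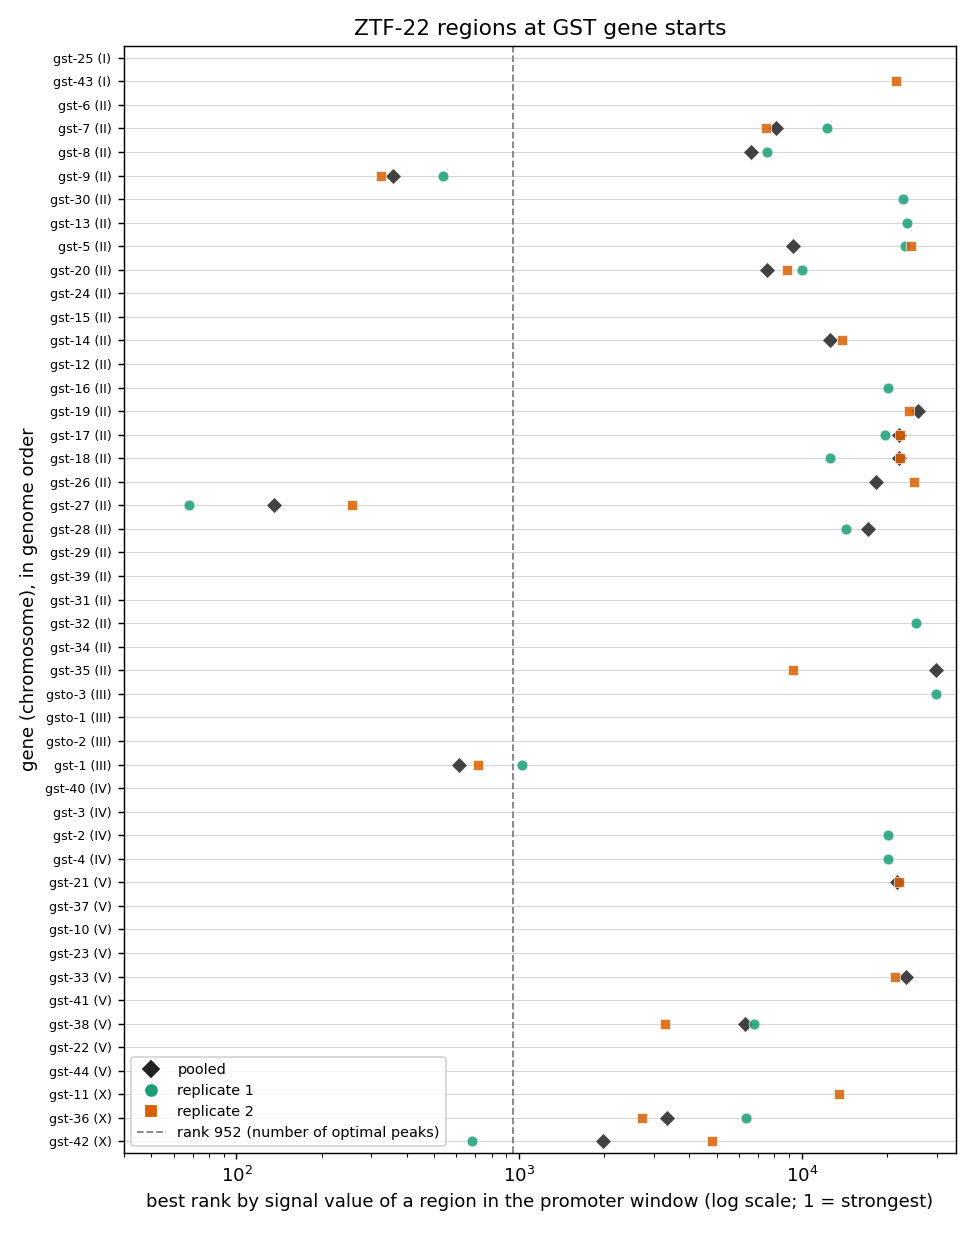
Best rank of a region in the promoter window of each of the 47 genes (log scale, 1 the strongest), in the pooled list and in each replicate, with the dashed line at rank 952; a gene with no point had no region in that list. The genes gst-27 and gst-9 lie left of the line in all 3 lists, gst-1 in 2 and gst-42 in replicate 1 alone.

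Regions of any strength were listed at 19 of the 47 genes in the pooled list (40.4%), against 28.3% of all protein-coding genes. The counts were 20 in replicate 1 (42.6%, background 27.6%) and 19 in replicate 2 (40.4%, background 28.8%). In both replicates, 11 genes had a region (23.4%, background 15.8%), and each of them also had one in the pooled list. These were gst-1, gst-5, gst-7, gst-9, gst-17, gst-18, gst-20, gst-27, gst-36, gst-38 and gst-42. Regions in replicate 1 alone were found at 7 genes, with ranks from 20188 to 29942, and in replicate 2 alone at gst-11 and gst-43. A further 2 genes had regions in the pooled list and replicate 1, and 6 in the pooled list and replicate 2. For regions in a single replicate the share of all protein-coding genes was not counted. Whether these counts differ from those of other genes is therefore unknown.

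By position, both replicates placed a summit within 100 bp of the best pooled summit at 8 genes (17%, background 10.7%): gst-7, gst-8, gst-9, gst-5, gst-27, gst-1, gst-36 and gst-42. The count depends on the distance: within 50 bp it was 4. The summit near gst-8 in replicate 2 was 99 bp away and outside its window. Among the members with a pooled region, the median best rank was 9328, against 11832 over the 5660 protein-coding genes with one. In replicate 1 the medians were 13474 and 13092, and in replicate 2 they were 13557 and 11844. The member median was thus at a better rank than the gene median in the pooled list and at a worse one in each replicate. Upstream positions held the pooled summit at 14 of the 19 genes (73.7%, against 69.6% of all genes with one), at a median offset of -66 bp against -117 bp.

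**Figure D3:**
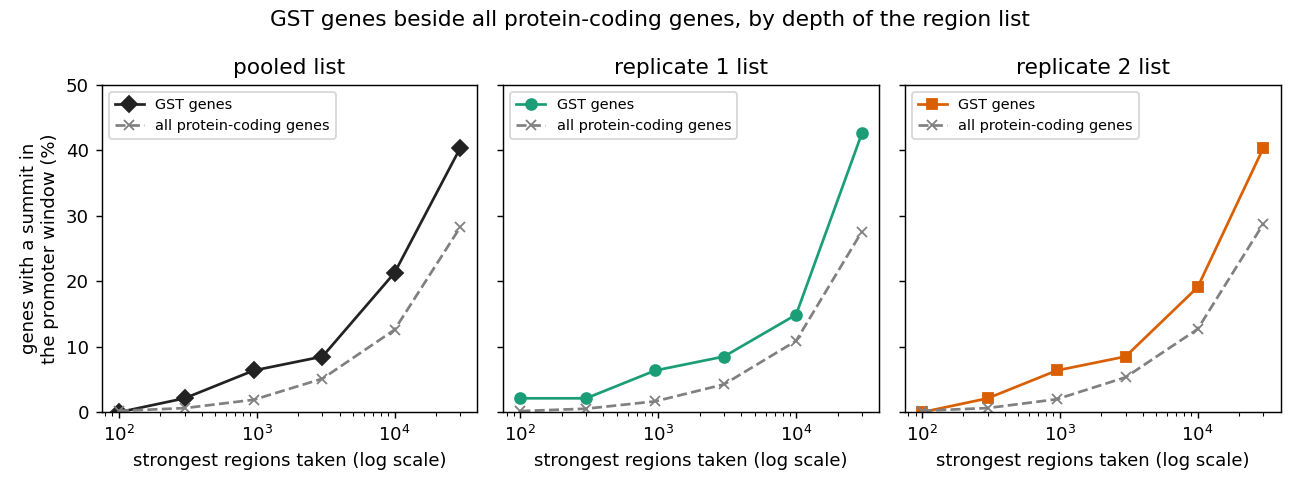
Share of genes with a summit in the promoter window (%) among the strongest 100 to 30000 regions of each list (log scale), for the 47 GST genes and for all protein-coding genes. At 952 regions the share of GST genes is 6.38% in each list, which is 3 genes, and at 30000 regions it is 40.4% to 42.6%.

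**Figure D4:**
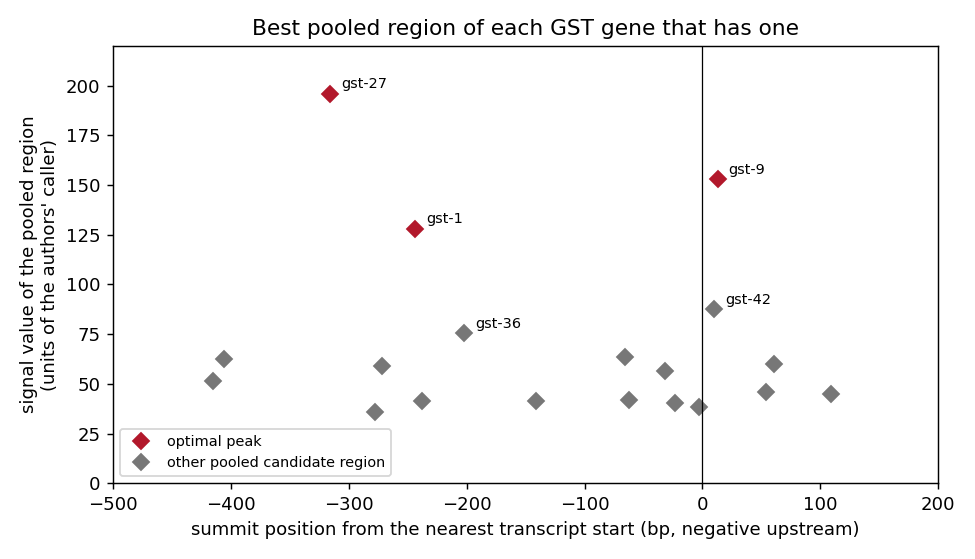
Signal value of the best pooled region against the position of its summit from the nearest transcript start (bp, negative upstream), for the 19 GST genes with a pooled region. The optimal peaks at gst-27 (196), gst-9 (153) and gst-1 (128) stand above gst-42 (87.6) and gst-36 (75.5), and the others are lower at all distances from the start.

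Nothing was listed in any window at 19 genes (40.4%, background 57.8%). Among them were gsto-1 and gsto-2 of the omega class, gst-10, a second gene of the pi class, gst-3, gst-6, gst-12, gst-15, gst-22, gst-23, gst-24, gst-25, gst-29, gst-31, gst-34, gst-37, gst-39, gst-40, gst-41 and gst-44, which RefSeq also annotates as omega. The last of the genes named gsto-, gsto-3, had a region in replicate 1 alone, at rank 29942, near the end of the list. The reporter gene gst-4 likewise had a region in replicate 1 alone, at rank 20231 (signal value 17.2, q = 0.781). Its summit lay 33 bp downstream of the start of gst-4 and 197 bp upstream of that of gst-2, which faces away from it, so that 1 region was counted at both. Neither gene had a region in replicate 2 or in the pooled list.

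Whether a window can be read at all depends on how much of it is unique, since the array genes are related copies. The share of words of 31 bases that occur once in the genome had a median of 100% over the windows of the most upstream starts, and it was at least 95% at 36 of the 47 genes (76.6%) and at 84.5% of all protein-coding genes. At the most upstream start of gst-10 it was 0. How reads with several matches were treated is not given in the sources used here, so the absence of a region at gst-10 cannot be read. It was 37.3% at gst-39 and 53.8% at gst-28. Within 100 bp of their pooled summits, gst-27, gst-9, gst-1, gst-42 and gst-36 were at 100%.

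In the tandem arrays, gst-27 and gst-9 were the genes with an optimal peak, 1 in each of 2 arrays. Members within 20 kb of each other formed 4 arrays with 25 genes, and 22 genes stood alone. The array from gst-26 to gst-35 held 9 genes over 21.6 kb of chromosome II (15163817 to 15185389). Of these, gst-27 had the optimal peak, and gst-26, gst-28 and gst-35 had pooled regions at ranks 18262, 17145 and 29796. The array from gst-6 to gst-9 (4 genes over 13.7 kb, chromosome II, 4879891 to 4893573) held the peak of gst-9 and weaker pooled regions at gst-7 and gst-8, with none at gst-6. The array from gst-20 to gst-18 (9 genes over 22.7 kb, chromosome II, 13608154 to 13630887) had 5 genes with pooled regions, the best at rank 7541 at gst-20, and no optimal peak. Its nearest member lies 322 kb from the endogenous ztf-22. In that array gst-17 and gst-18 overlap and share 1 pooled summit at rank 22048. The array of gst-3, gst-2 and gst-4 on chromosome IV (10139380 to 10143099) had no pooled region. Over all arrays, 12 of 25 genes had a pooled region, 7 of the 22 that stood alone did, and 28.3% of all protein-coding genes did. The 12 include gst-17 and gst-18 with their shared summit.

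Within gene bodies the replicates differed more than at starts. A summit lay between the annotated start and end of 30 of the 47 genes in replicate 1 (63.8%, against 53.1% of all protein-coding genes). In replicate 2 there were 18 (38.3%, against 51.6%), and in the pooled list also 18 (38.3%, against 52.1%). Gene length was not taken into account, and the summits were of any strength. Counting within 5 kb of a gene added no optimal peak beyond those at gst-27, gst-9 and gst-1 and the one inside lin-12. Just beyond that distance, an optimal peak of pooled rank 75 (signal value 223) had its summit at -5265 bp from the start of gst-1. The start of R107.5, on the opposite strand at -5541 bp, was nearer to that summit. All of cls-2 (-4283 to -436 bp) lay between the summit and gst-1.

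Words known for regulators of these genes were counted on both strands in the 300 bases from 250 before to 50 after the most upstream start. GTCAT, a core word of SKN-1 sites, was in 32 of the 47 promoters (68.1%), against 39.5% of all 19973 promoters. It was in 68.0% of the promoters in arrays and in 68.2% of those of genes that stood alone. Genes with a pooled ZTF-22 region held it in 12 of 19 promoters and genes without one in 20 of 28. The other such word, ATCAT, was in 66.0% against 55.6%. By gene, GTCAT occurred 3 times in the promoters of gst-1 and gst-4, and 0 times in those of gst-27, gst-9 and gst-42. ATCAT occurred 2 times in each of the promoters of gst-1, gst-4, gst-27 and gst-42, and 0 times in that of gst-9. TGATAA, the word of GATA factors such as the intestinal ELT-2, was in 34.0% against 30.2%. GTAAACA, the word of DAF-16, was in 4 promoters (8.51% against 4.77%), and CTGCGTCTC, found at many worm factor sites, was in 1, that of gst-25. GTCAT and ATCAT can overlap when they run together, as in the gst-1 sequence above, and TGATAA can share its first bases with the other strand of ATCAT.

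Around the 18 distinct best pooled summits, 100 bp on each side, GTCAT was in 44.4%, against 33.5% of optimal peaks and 28.6% of pooled candidate regions. ATCAT was in 61.1%, against 39.0% and 39.5%. The 18 summits all lay in promoter windows, while the optimal peaks and candidate regions beside them came from any part of the genome. These shares therefore do not separate GST sites from promoter sites in general. TGATAA was in 22.2%, against 34.9% and 17.5%, and none was at the 3 summits of gst-27, gst-9 and gst-1. The median GC content of the 18 was 37.6%, against 43.8% for optimal peaks and 41.3% for candidate regions. The part of base composition in these shares was not tested. A match is a run of letters and was not tested as a binding site.

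Other genes of glutathione and xenobiotic metabolism were counted by the same window. None of the 7 genes for glutathione synthesis and recycling, 8 glutathione peroxidases, 2 kappa class transferases, 12 thioredoxins, glutaredoxins and their reductases, 11 peroxiredoxins, superoxide dismutases and catalases, 74 cytochrome P450 genes or 67 UDP-glucuronosyltransferases had an optimal peak, against 1.91% of all genes. Most of these lists are short and no test was made over them, so the counts are a description. Of 30 short chain dehydrogenase genes 1 had one, dhs-25 (pooled rank 617, 25 bp upstream of its start). Of 22 ABC exporter genes 1 had one, mrp-5, known in the worm for the export of haem from the intestine. It ranked 476 in the pooled list, 493 in replicate 1 and 579 in replicate 2, with the pooled summit 284 bp upstream of its nearest start.

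Of 13 regulators of the detoxification response, 4 had an optimal peak, against 1.91% of all protein-coding genes. These were elt-2, which encodes a GATA factor that directs intestinal genes (pooled rank 133), nhr-49, a nuclear receptor of fat metabolism and stress (388), daf-16, the FOXO factor (648), and wdr-23, which holds SKN-1 down (838). Their ranks in replicate 1 were 63, 786, 3819 and 1106, and in replicate 2 they were 176, 408, 680 and 469. For wdr-23 the summit of replicate 1 was 380 bp upstream of the nearest start. The pooled and replicate 2 summits were 77 and 86 bp upstream, so its ranks belong to different places. At elt-2, nhr-49 and daf-16 the pooled summits lay 451, 376 and 406 bp upstream of the nearest annotated start. These are outside the window of 300 bp before to 100 bp after a start that was run for the GST genes. No other window was run for the regulators. A gene with several annotated starts has several windows. Of the GST genes 42 had 1 start, and the number of starts of the regulators was not taken into account. The list was short and was chosen with earlier results known, elt-2 among them. For skn-1 itself no region reached the 952 strongest of any list.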

How the data were processed

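ChIP-seq of ZTF-22 tagged with EGFP was made from 2 biological replicates of whole young adults, per the labels. The authors deposited narrowPeak lists with ce11 coordinates (1 a replicate, 1 from pooled reads and 1 of optimal peaks kept by the irreproducible discovery rate), per the file headers and names. Column 7 is the authors' signal value, and column 9 is deposited as -log10 of the q-value. Per the deposited descriptions, candidate lists were called against a control alignment. Not given in the sources used here are the aligner, the peak caller and the thresholds. All 4 lists fitted the chromosome lengths of the reference.

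Summits (column 2 plus column 10, written from 1) were assigned to starts of Ensembl release 115 transcripts on the 6 nuclear chromosomes with Python 3.11.15, NumPy 2.4.6 and SciPy 1.17.1. Ranks were taken by signal value, with ties at their mean rank. The assignment was tested on simulated summits. No test or p-value was computed, since there was 1 group and the members and lists were chosen with earlier results of these data known. Depth per library is unknown.

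Genes named with values were those with an optimal peak or with one of the 952 strongest regions of a replicate, the 5 next best, gst-4, members of other lists with an optimal peak, and genes sharing a summit. Neighbouring snoRNA genes, the peak in lin-12 and summits in gene bodies were looked at after the values were seen. Alternatives covered other windows, overlap in place of summits, stricter thresholds, each replicate alone and other matching distances.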

Additional observations from a re-analysis of the deposited data

How the results depend on the processing

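The count of 3 GST genes with an optimal peak ranged from 2 to 3 under the alternatives run. The main setting had 382 of all 19973 protein-coding genes. Windows from 300 bp before to 100 bp after a start left 2, without gst-27, whose summit lies farther upstream. Those windows left 285 of all protein-coding genes. Taking the 476 strongest optimal peaks left 2, without gst-1, and 190 of all protein-coding genes. Leaving out summits within 100 bp of a snoRNA or tRNA gene start, an alternative chosen after seeing the data, also left 2. It left 358 of all protein-coding genes. Without replicate 1 or without replicate 2, that is with the strongest regions of the other replicate alone, the count was 3 each time, but gst-42 took the place of gst-1 in replicate 1 alone. The counts over all protein-coding genes were 398 without replicate 1 and 333 without replicate 2. With the 476 strongest regions, replicate 1 had 1 GST gene, gst-27, because fewer regions were taken. With as many, replicate 2 had 2, gst-27 and gst-9. The counts over all protein-coding genes were 178 in replicate 1 and 203 in replicate 2. Matching summits within 50 bp left 4 genes with a pooled summit matched in both replicates, and within 200 bp there were 10. Over all protein-coding genes this count was made only at 100 bp (10.7%). GTCAT was in 44.4% of the 18 summit windows and 68.1% of promoters, and the cause was not tested. The other 4 words were in 22.2% (TGATAA), 61.1% (ATCAT), 5.56% (CTGCGTCTC) and 5.56% (GTAAACA) of the summit windows. Their shares of promoters were 34.0%, 66.0%, 2.13% and 8.51%, in that order. Every other alternative run moved its count of genes by at most 1.5 times. Ranking by -log10 p was not run, because that column holds -1 in all 90952 regions, and ranking by -log10 q, added after seeing the data, gave 3 genes in each replicate. Over all protein-coding genes, ranking by -log10 q gave 333 in replicate 1 and 402 in replicate 2. No paired analysis was possible because there is only 1 group. Read depth, and with it the precision of each rank, is unknown.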
